A study of Mus musculus with 11 samples.

Results

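SWI/SNF complexes are chromatin remodellers that slide or evict nucleosomes with the energy of ATP. Each complex is built around an ATPase motor, and most positions can be filled by one of several related proteins encoded by different genes. The canonical BAF form carries ARID1A or ARID1B, the PBAF form carries ARID2, PBRM1, BRD7 and PHF10, and the non-canonical ncBAF form carries BRD9 and GLTSCR1, so the choice of subunit sets which form is made. In the pancreas, ARID1A is known as a subunit lost in a share of tumours, and acinar cells, which make digestive enzymes, are known to take on duct-like features when EGF receptor signalling is active.

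The genes described here encode the subunits of these forms. They were chosen by gene symbol from a list of 31 names, of which 30 had a row among the 23284 symbols counted, and Gltscr1l was not analysed here. RNA was measured in 266-6, a mouse pancreatic acinar cell line, in 11 libraries. Cells received siRNAs against Arid1a (25 nM) or a non-targeting control siRNA named NT5, for which no concentration is given, for 48 h. The siRNAs against Arid1a and the control siRNA came from different suppliers. All cells were kept in serum-free medium overnight and then received EGF (40 ng/ml) or its vehicle (0.1% BSA) for 8 h. This gave 4 groups: Arid1a siRNAs with EGF (n = 3), Arid1a siRNAs with vehicle (n = 3), control siRNA with EGF (n = 3) and control siRNA with vehicle (n = 2). The knockdown was transient, and the labels give no altered Arid1a allele in the line. Nothing in the labels ties replicates to separate cultures. The p-values below therefore reflect how far these samples differ from each other, which may be technical variation.

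Libraries held 11947581 to 14143225 counted reads with Arid1a siRNAs and EGF, 10279763 to 15710575 with Arid1a siRNAs, 13547278 to 16796787 with control siRNA and EGF, and 14059719 to 19773007 with control siRNA. Of 14 acinar markers, 13 had enough reads to be tested, and their summed level lay between 14266 and 18521 CPM (counts scaled to a common library size) in all 11 libraries. Most of that sum was Ctrb1, a chymotrypsinogen gene, at 11278 to 14335 CPM, and 1 marker, Amy2a5, was at 0 in every library. Libraries of a group differed in how counts followed gene length. The slope of log2 CPM per doubling of exon length was -0.07 in Arid1a siRNA replicate 3 and in replicate 2 of Arid1a siRNAs with EGF, and it was -0.04 in replicate 1 against 0.06 in replicate 2 of the control siRNA libraries. A fit with these slopes taken out is given in the closing section. In the tests below, changes are log2 changes ± their standard error from an edgeR quasi-likelihood fit, and a gene is called changed where its Benjamini-Hochberg adjusted p over all 13343 genes tested was under 0.05.

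Single acinar markers were also called changed, in both directions. With the siRNAs 4 of the 13 were called higher and 5 lower with vehicle, and 4 higher and 4 lower with EGF. With EGF, 2 were called higher and 7 lower with control siRNA, and 1 higher and 4 lower with Arid1a siRNAs. Of all genes tested, the siRNAs changed 38.9% with vehicle and 46.9% with EGF. EGF changed 35.6% of all genes with control siRNA and 23.4% with Arid1a siRNAs. Bhlha15, an acinar transcription factor gene, had log2 changes of -1.02 ± 0.13 with the siRNAs in EGF-treated cells and 1.15 ± 0.15 with EGF in control siRNA cells. Cela3b, an elastase gene, had 1.43 ± 0.18 with the siRNAs in EGF-treated cells. The summed level of 6 ductal markers was 64.5 to 70.4 CPM in Arid1a siRNAs with EGF and 52.9 to 56.9 CPM in Arid1a siRNAs, against 110 to 120.5 CPM in control siRNA with EGF and 55.4 to 78.2 CPM in control siRNA. Of the 5 ductal markers tested, the siRNAs lowered 1 with vehicle and 2 with EGF and raised 0, and EGF raised 1 and lowered 1 with control siRNA and raised 1 with Arid1a siRNAs. Sox9, a ductal transcription factor gene, made up most of that sum, at 54.3 ± 1.82 CPM in Arid1a siRNAs with EGF and 41.4 ± 2.71 CPM in Arid1a siRNAs, against 99.6 ± 7.24 CPM in control siRNA with EGF (SD, n = 3 each) and 49.1 ± 14.5 CPM in control siRNA (SD, n = 2). None of the 6 ductal markers was at 0 in every library. The part of acinar and ductal markers in the changes of subunit genes was not tested.

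Of the 30 subunit genes, 29 had enough reads to be tested. Bcl11b, which encodes a zinc-finger subunit of BAF best known in T cells and neurons, had a single read, in Arid1a siRNAs with EGF replicate 2. Levels of different genes are compared on the scale of the authors' FPKM values, which divide by transcript length, for the 3 groups whose columns could be matched to a group. With control siRNA and EGF, Actb stood highest at 959 ± 13.2 FPKM (SD, n = 3), followed by Actl6a at 117 ± 5.53, Smarcb1 at 96.7 ± 1.79 and Smarcd2 at 60.5 ± 1.46 FPKM. Smarca4 at 58.0 ± 1.06, Phf10 at 52.5 ± 3.54 and Smarcc2 at 51.3 ± 0.891 FPKM followed, and the last 2 differed by less than their spread. Subunits best known from neurons or muscle were near the bottom of the order. Ss18l1 stood at 4.96 ± 0.0657, Dpf1 at 4.08 ± 0.430, Smarcd3 at 3.90 ± 0.462 and Actl6b at 1.21 ± 0.101 FPKM in the same libraries. Dpf1 and Smarcd3 did not differ beyond their spread. Dpf3 was lowest of the tested genes at 0.190 ± 0.0577 FPKM and rested on 2 to 15 reads per library.

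**Figure D1:**
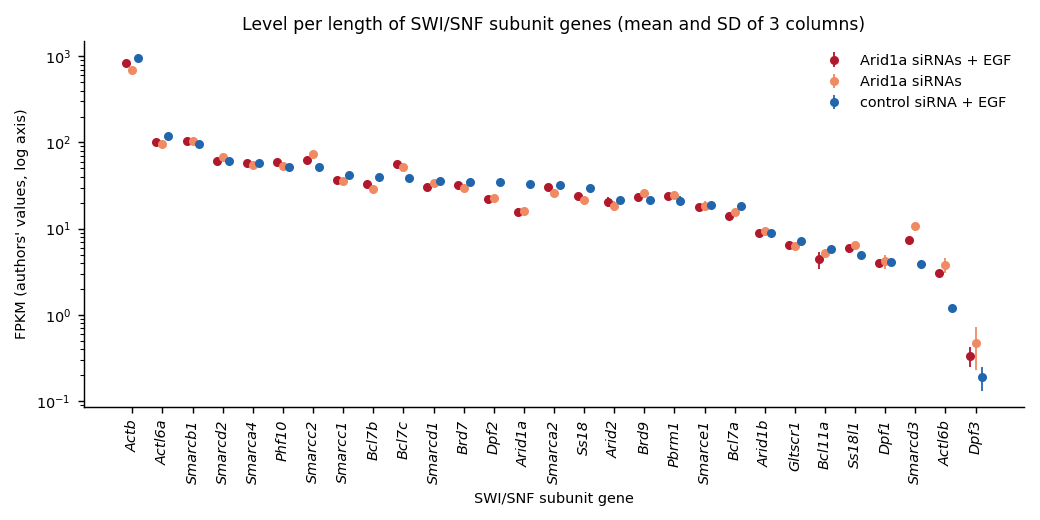
Level of 29 SWI/SNF subunit genes as the authors' FPKM (log axis) in Arid1a siRNAs with EGF, Arid1a siRNAs with vehicle, and control siRNA with EGF. Points are means and bars SD of 3 columns per group. Genes are ordered by their level with control siRNA and EGF, from Actb at 959 FPKM to Dpf3 at 0.190 FPKM. Smarcd3, Actl6b, Arid1a and Dpf2 show the widest gaps between groups among the genes above 1 FPKM.

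With Arid1a siRNAs, RNA of Arid1a, Dpf2, Bcl7a, Bcl7b and Bcl11a fell and RNA of Smarcd3 rose. These 6 genes were called in both settings and under every alternative processing tried. Actl6b and Bcl7c rose in both settings as well, and Smarcc1, Smarcd1, Actl6a and Ss18 fell by smaller amounts. With vehicle, 3 of the 29 tested subunit genes were called higher and 9 lower, which is 41.4% of them, against 38.9% of all genes tested (18.8% higher, 20.1% lower). With EGF, 6 were called higher and 10 lower, which is 55.2%, against 46.9% of all genes (23.7% higher, 23.2% lower). Arid1a, the siRNAs' own target, is counted among the lower genes of both settings, here and in the counts of libraries that did not overlap. The share called, target included, lay near the background with vehicle and a little above it with EGF, and neither difference was tested. The median log2 change of the 29 was -0.08 in each, against -0.01 with vehicle and 0.00 with EGF over all genes. Libraries did not overlap, with those of Arid1a siRNAs all higher, for 6 subunit genes with vehicle and 8 with EGF, against 26.8% and 28.8% of all genes. They were all lower for 13 and 10, against 27.9% and 28.8%. In bulk RNA, fewer cells that express a gene and less of its RNA per cell cannot be told apart.

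All 12 members called with vehicle, the target Arid1a among them, were called in the same direction with EGF. There they made up 75.0% of the 16 called. These comparisons share no library, but both use 1 estimate of the spread from all 11 libraries, so their calls are not independent. For all genes, 4199 were called in the same direction in both, which is 80.9% of the 5190 called with vehicle and 67.1% of the 6261 called with EGF. When reads were scaled by library size alone, the split of higher and lower moved to 4 and 5 with vehicle and to 8 and 8 with EGF. Without control siRNA replicate 2, 5 members were called higher with vehicle, and 2 were without control siRNA replicate 1 or Arid1a siRNA replicate 2. With EGF, 4 were called higher without replicate 1 of control siRNA with EGF. No label pairs the EGF libraries, and their replicate numbers were taken as pairs from correlations in these same data. A fit with the replicate block over all libraries changed no call there. A blocked fit of only those 6 libraries called 9 genes higher and 14 lower, and the 7 added were Pbrm1, Brd9 and Smarcb1 higher, and Smarca2, Arid2, Brd7 and Gltscr1 lower, with log2 changes of 0.19, 0.11, 0.10, -0.19, -0.08, -0.10 and -0.15.

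**Figure D2:**
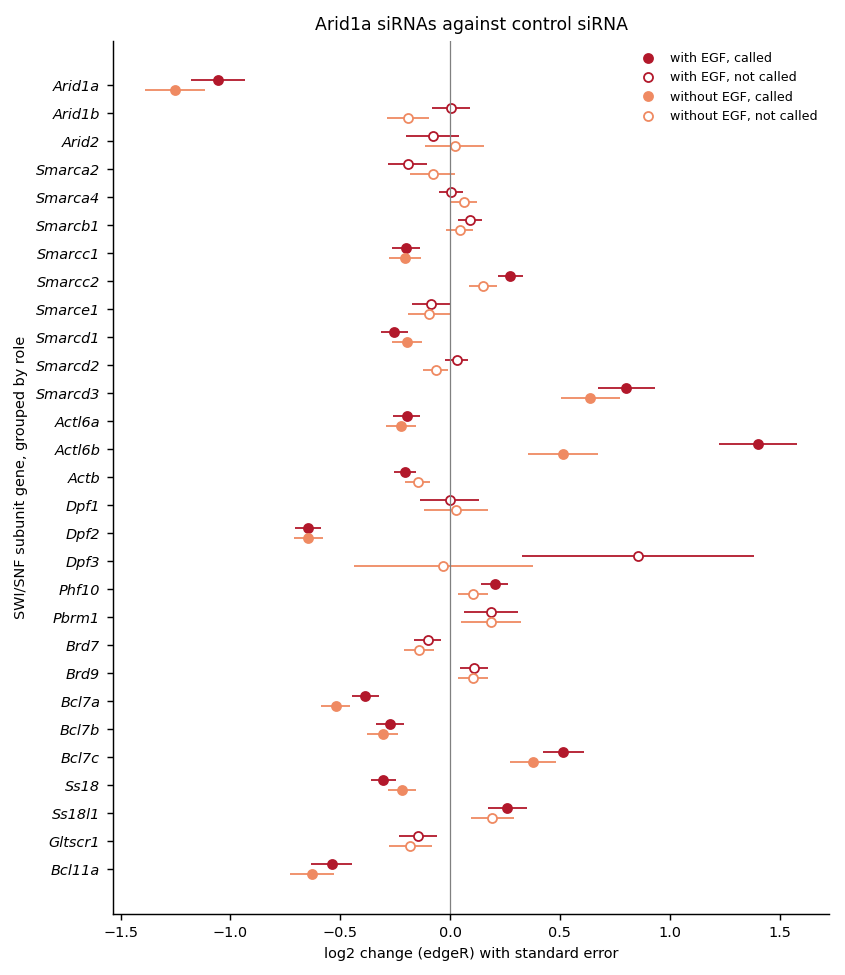
Log2 change of each of 29 SWI/SNF subunit genes with Arid1a siRNAs over control siRNA, with EGF (upper point of each row) and with vehicle, that is without EGF (lower point). Bars are standard errors of the edgeR fit, and filled points are called. Arid1a, Dpf2, Bcl7a and Bcl11a lie to the left in both, and Smarcd3, Actl6b and Bcl7c to the right.

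EGF raised Smarca2 and Actb and lowered Smarcc2 and Smarcd3 with either siRNA. With control siRNA it also raised Ss18 and lowered Arid1b, Smarcd2, Actl6b, Dpf3, Bcl7a and Bcl11a. With control siRNA, it raised 3 of the 29 and lowered 8, which is 37.9%, against 35.6% of all genes (16.8% higher, 18.8% lower). With Arid1a siRNAs it raised 2 and lowered 2, which is 13.8%, against 23.4% of all genes (13.0% higher, 10.4% lower). The median change of the members was -0.06 and -0.05, against -0.03 and -0.01 over all genes. Libraries with EGF lay all above those with vehicle for 6 members with control siRNA and 7 with Arid1a siRNAs, against 25.7% and 19.7% of all genes, and all below for 11 and 7, against 29.9% and 19.0%. The 4 genes called with Arid1a siRNAs were called in the same direction with control siRNA, where they made up 36.4% of the 11 called. These comparisons share no library either, but again both use the spread estimated from all 11 libraries. For all genes, 2662 were called in the same direction in both, which is 85.3% of the 3119 called with Arid1a siRNAs and 56.1% of the 4744 called with control siRNA, so the overlap of the 4 is read against a high background. Scaling by library size alone gave 1 gene higher and 7 lower with Arid1a siRNAs, and RLE factors gave 1 higher and 3 lower. Leaving out 1 library gave 5 to 8 lower with control siRNA, with 5 without replicate 3 of control siRNA with EGF. With Arid1a siRNAs it gave 1 to 4 lower, with 4 without control siRNA replicate 1 and 3 without control siRNA replicate 2 or Arid1a siRNA replicate 1. There 1 was lower without Arid1a siRNA replicate 2 or replicate 1 of Arid1a siRNAs with EGF. In the same comparison 1 was higher, Actb, without any one of the 3 Arid1a siRNA libraries, replicates 1 and 3 of Arid1a siRNAs with EGF, and replicates 1 and 3 of control siRNA with EGF.

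**Figure D3:**
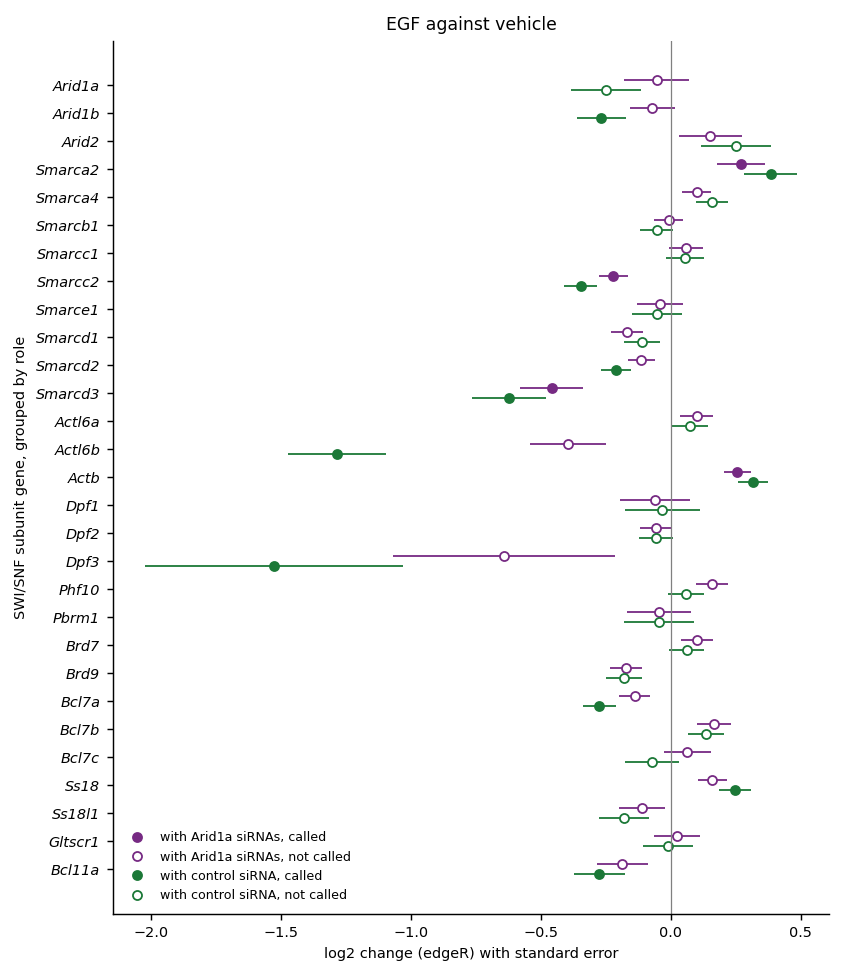
Log2 change of each of 29 SWI/SNF subunit genes with EGF over vehicle, with Arid1a siRNAs (upper point of each row) and with control siRNA (lower point). Bars are standard errors of the edgeR fit, and filled points are called. Actl6b and Dpf3 lie farthest to the left with control siRNA, at -1.29 and -1.53, and Smarca2 and Actb lie to the right in both.

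No subunit gene was called for a difference between the EGF responses with Arid1a siRNAs and with control siRNA in the edgeR test, where 0.944% of all genes were called. At an unadjusted p under 0.05 there was 1, Actl6b (log2 0.89 ± 0.24, edgeR adjusted p = 0.127), and DESeq2 called 0 as well. The 95% interval of that difference was -0.21 to 0.60 for Arid1a, -0.40 to 0.18 for Smarca2 and -0.23 to 0.56 for Smarcd3 on the log2 scale, and differences within these bounds are not excluded.

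Among the ARID subunits, which contact DNA and mark the form of the complex, Arid1a was the siRNAs' target. With EGF, Arid1a stood at 145, 122 and 152 CPM with Arid1a siRNAs, against 308, 263 and 300.2 CPM with control siRNA. With vehicle the values were 151, 157 and 127 CPM with Arid1a siRNAs, against 292 and 399.9 CPM with control siRNA. The highest value with Arid1a siRNAs was under the lowest with control siRNA, and the change was log2 -1.06 ± 0.12 with EGF (edgeR adjusted p = 2.85e-05) and log2 -1.25 ± 0.13 with vehicle (edgeR adjusted p = 2.36e-05). With control siRNA, Arid1a was not called for EGF (log2 -0.25 ± 0.13, edgeR adjusted p = 0.174), and without control siRNA replicate 1 it was (log2 -0.47, edgeR adjusted p = 0.0155, with 0.0155 to 0.982 over its alternatives). Arid1b encodes the subunit that takes the place of ARID1A. Its level was 116, 98.1 and 112 CPM in Arid1a siRNAs with EGF and 118, 124 and 101 CPM in Arid1a siRNAs, against 115, 99.0 and 111 CPM in control siRNA with EGF and 124 and 137 CPM in control siRNA. The libraries with EGF overlapped between the siRNAs, and those with vehicle did not. Arid1b was not called with the siRNAs, at 0.00 ± 0.09 with EGF and -0.19 ± 0.10 with vehicle on the log2 scale, and the 95% intervals were -0.18 to 0.19 and -0.40 to 0.01. With the trend with gene length taken out, an alternative chosen after seeing the data, it was called lower with vehicle (log2 -0.16, edgeR adjusted p = 0.0340, with 0.0340 to 0.459 over its alternatives). EGF lowered Arid1b with control siRNA (log2 -0.27 ± 0.09, edgeR adjusted p = 0.0392). That call was lost without any one of control siRNA replicate 2, control siRNA with EGF replicates 2 and 3, Arid1a siRNA replicate 1 and Arid1a siRNAs with EGF replicate 3, and the adjusted p was 0.000819 to 0.216 over its alternatives.

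Arid2 encodes the ARID subunit of PBAF. Its values were 224, 171 and 208 CPM in Arid1a siRNAs with EGF and 191, 200.1 and 151 CPM in Arid1a siRNAs, against 223, 199 and 214 CPM in control siRNA with EGF and 159 and 198 CPM in control siRNA. Arid2 was called in none of the 5 comparisons in the fit without the replicate block. Its libraries overlapped between the siRNAs, and the blocked fit of the EGF libraries called it lower with Arid1a siRNAs (log2 -0.08, edgeR adjusted p = 0.0345, with 0.0345 to 0.8996 over its alternatives). With control siRNA, all 3 EGF libraries lay above both vehicle libraries (log2 0.25 ± 0.13, edgeR adjusted p = 0.173).

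The ATPases SMARCA4 and SMARCA2 are the alternative motors of the complex. Smarca4 held 400.02, 391 and 398 CPM in Arid1a siRNAs with EGF and 359.6, 381 and 369 CPM in Arid1a siRNAs, against 395, 390.0 and 402 CPM in control siRNA with EGF and 328 and 381 CPM in control siRNA. Its libraries overlapped between the siRNAs, and the 95% intervals of the log2 change were -0.12 to 0.12 with EGF and -0.07 to 0.19 with vehicle. With control siRNA, Smarca4 was not called for EGF (log2 0.16 ± 0.06, edgeR adjusted p = 0.0606). It was called without control siRNA replicate 2 (log2 0.27, edgeR adjusted p = 0.00676) and without Arid1a siRNA replicate 3 (edgeR adjusted p = 0.0490, with 0.00676 to 0.641 over its alternatives). Smarca2 rose with EGF in both settings. With control siRNA, Smarca2 stood at 191, 167 and 192 CPM with EGF, against 130.5 and 151 CPM with vehicle. With Arid1a siRNAs it stood at 169.5, 137 and 174 CPM with EGF, against 131, 141 and 126 CPM with vehicle. The groups were apart with control siRNA, whereas with Arid1a siRNAs replicate 2 of the EGF libraries lay among the vehicle libraries. The change with EGF was log2 0.38 ± 0.10 with control siRNA (edgeR adjusted p = 0.00883) and log2 0.27 ± 0.09 with Arid1a siRNAs (edgeR adjusted p = 0.0455). The first call was lost without control siRNA replicate 1 (log2 0.27, edgeR adjusted p = 0.120, with 0.000177 to 0.120 over its alternatives). The second was lost without any one of the 3 Arid1a siRNA libraries, replicates 1 and 3 of Arid1a siRNAs with EGF, and replicates 1 and 3 of control siRNA with EGF, with adjusted p 0.00173 to 0.205 over its alternatives. With the siRNAs Smarca2 was not called (log2 -0.19 ± 0.09, edgeR adjusted p = 0.0930 with EGF). It was called lower there without replicate 2 of control siRNA with EGF (log2 -0.26, edgeR adjusted p = 0.0437, with 6.59e-07 to 0.373 over its alternatives).

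Promoters were searched on both strands for the letters CCGGAAG (a core bound by ETS factors) and TGANTCA (AP-1), since EGF receptor signalling is known to act on both kinds of factor. These motifs do not overlap each other in the windows shown. Promoters were taken from RefSeq (GRCm38.p6, a later build than the mm9 of the read counts) as windows of 300 bases for 24 of the members. Arid2, Smarce1, Actb, Bcl7a, Ss18 and Gltscr1 had no entry. Smarca2 alone among the 24 held both motifs, and its matches are shown, as the subunit ATPase that rose with EGF, 5′ to 3′ on the gene's strand with the match in capitals.
Smarca2 ETS core, chr19:26605043-26605072 (plus strand, match on the other strand): ctgcggcgcgtCTTCCGGcgcccgtggagg
Smarca2 AP-1, chr19:26605177-26605206 (plus strand): tgtactctgggTGACTCAgagagggaagat
The ETS match began 106 bases before the annotated start site and the AP-1 match 28 bases after it. A member was counted where any of its promoters held the motif, whereas the background counts single promoters. CCGGAAG stood in 3 of the 24 members (12.5%), Smarca2, Smarcc1 and Brd9, against 8.86% of 32851 promoters of the same length. TGANTCA stood in 2 (8.33%; Smarca2 and Smarcb1), against 7.81%. The shares are close to those of all promoters, though counted per gene and not per promoter. Smarcc1, Brd9 and Smarcb1 were not called higher with EGF in either setting.

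SMARCC1 and SMARCC2 form the scaffold on which the complex is assembled. Smarcc1 stood at 231, 205 and 234 CPM in Arid1a siRNAs with EGF and 213, 227 and 203 CPM in Arid1a siRNAs, against 260.0, 253 and 257 CPM in control siRNA with EGF and 232 and 263 CPM in control siRNA. Smarcc2 stood at 337, 307 and 332 CPM in Arid1a siRNAs with EGF and 382, 393 and 363 CPM in Arid1a siRNAs, against 269, 265 and 272 CPM in control siRNA with EGF and 324 and 361 CPM in control siRNA. The pair moved apart. With Arid1a siRNAs every library was lower for Smarcc1 and higher for Smarcc2 than the control siRNA libraries of the same setting. Smarcc1 fell by a small amount with the siRNAs (log2 -0.20 ± 0.07, edgeR adjusted p = 0.0198 with EGF and log2 -0.20 ± 0.07, edgeR adjusted p = 0.0365 with vehicle). Smarcc2 rose with the siRNAs in EGF-treated cells (log2 0.27 ± 0.06, edgeR adjusted p = 0.00110) and was not called with vehicle (log2 0.15 ± 0.06, edgeR adjusted p = 0.0759). EGF lowered Smarcc2 with control siRNA (log2 -0.35 ± 0.06, edgeR adjusted p = 0.000558) and with Arid1a siRNAs (log2 -0.22 ± 0.06, edgeR adjusted p = 0.0105), and all libraries with EGF lay below those with vehicle. The vehicle call of Smarcc1 was lost without any one of control siRNA replicate 2, Arid1a siRNA replicates 1 and 3, control siRNA with EGF replicates 1 and 3, and Arid1a siRNAs with EGF replicate 3 (adjusted p 0.00775 to 0.329 over its alternatives). Its call in EGF-treated cells was lost without control siRNA with EGF replicates 1 or 3 or Arid1a siRNAs with EGF replicate 2 (adjusted p 3.71e-08 to 0.0927 over its alternatives). Smarcc2 was called with vehicle without control siRNA replicate 2 or Arid1a siRNA replicate 3 (log2 0.23 and 0.18, edgeR adjusted p = 0.0298 and 0.0363, with 0.00618 to 0.466 over its alternatives), and its EGF response with Arid1a siRNAs was lost without Arid1a siRNA replicate 2 (edgeR adjusted p = 0.0513, with 0.00144 to 0.0838 over its alternatives). The library kit did not mark strand, and Smarcc1 shares exon sequence with Dhx30 on the other strand, which had log2 changes of 0.16 with EGF and 0.20 with vehicle, opposite to those of Smarcc1. Smarcb1, which contacts the nucleosome, and Smarce1, an HMG-box subunit, were called in none of the 5 comparisons. Their group means lay between 155 and 166 CPM for Smarcb1 and between 54.0 and 59.5 CPM for Smarce1.

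SMARCD1, SMARCD2 and SMARCD3 (BAF60 proteins) are alternatives that link the complex to transcription factors, and SMARCD3 is best known from heart and skeletal muscle. Smarcd3 showed one of the widest relative changes among the subunits. With EGF, Smarcd3 stood at 16.1, 16.6 and 17.8 CPM with Arid1a siRNAs, against 8.47, 9.07 and 11.5 CPM with control siRNA. With vehicle Smarcd3 stood at 19.96, 23.3 and 25.9 CPM with Arid1a siRNAs, against 13.9 and 16.0 CPM with control siRNA. The groups did not overlap in either setting, and in both siRNA settings each library with EGF lay below each library with vehicle. Smarcd3 rose with the siRNAs (log2 0.80 ± 0.13, edgeR adjusted p = 0.000154 with EGF and log2 0.64 ± 0.13, edgeR adjusted p = 0.00178 with vehicle) and fell with EGF (log2 -0.62 ± 0.14, edgeR adjusted p = 0.00320 with control siRNA and log2 -0.46 ± 0.12, edgeR adjusted p = 0.0122 with Arid1a siRNAs). The last call was lost without replicate 1 of Arid1a siRNAs with EGF (edgeR adjusted p = 0.0538, with 0.00492 to 0.0538 over its alternatives). Smarcd3 shares exon sequence with Chpf2, which lies on the other strand. Chpf2 had log2 changes of 0.93 and 0.86 with the siRNAs with EGF and vehicle, and of -0.03 and 0.03 with EGF in control siRNA and Arid1a siRNA cells, and the part of its reads in the counts of Smarcd3 was not tested.

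Smarcd1 moved the other way. It stood at 94.95, 97.7 and 105 CPM in Arid1a siRNAs with EGF and 108, 111 and 116 CPM in Arid1a siRNAs, against 117, 112 and 126 CPM in control siRNA with EGF and 122 and 133 CPM in control siRNA. Every library with Arid1a siRNAs lay below the control siRNA libraries of its setting, and the change was log2 -0.25 ± 0.06 with EGF (edgeR adjusted p = 0.00410) and log2 -0.20 ± 0.07 with vehicle (edgeR adjusted p = 0.0369). The vehicle call was lost without any one of control siRNA replicate 2, Arid1a siRNA replicates 1 and 2, control siRNA with EGF replicate 1 and Arid1a siRNAs with EGF replicate 3 (adjusted p 0.00753 to 0.241 over its alternatives). With Arid1a siRNAs, Smarcd1 was not called for EGF (log2 -0.17 ± 0.06, edgeR adjusted p = 0.0677), but it was without control siRNA replicate 1 (edgeR adjusted p = 0.0495, with 0.0193 to 0.221 over its alternatives). Smarcd2 stood at 159, 167 and 156 CPM in Arid1a siRNAs with EGF and 171, 176 and 176 CPM in Arid1a siRNAs, against 152, 162 and 158 CPM in control siRNA with EGF and 189.6 and 175 CPM in control siRNA. It overlapped between the siRNAs and fell with EGF in control siRNA cells (log2 -0.21 ± 0.06, edgeR adjusted p = 0.0108). Without control siRNA replicate 1 the call of Smarcd2 was lost (log2 -0.16, edgeR adjusted p = 0.111, with 0.00286 to 0.371 over its alternatives).

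The actin-related position holds ACTL6A in dividing cells and ACTL6B in neurons, next to beta-actin itself. Actl6b, a gene at a low level here, had the largest rise of the 29 tested subunit genes with the siRNAs in EGF-treated cells. With EGF, Actl6b stood at 5.00, 4.75 and 4.85 CPM with Arid1a siRNAs, against 1.96, 1.73 and 1.84 CPM with control siRNA. With vehicle Actl6b stood at 5.60, 7.56 and 5.83 CPM with Arid1a siRNAs, against 4.30 and 4.73 CPM with control siRNA. The 3 libraries of control siRNA with EGF were the lowest of all 11, and no group overlapped with its counterpart. With the siRNAs, Actl6b rose by log2 1.40 ± 0.18 in EGF-treated cells (edgeR adjusted p = 1.68e-05) and by log2 0.51 ± 0.16 with vehicle (edgeR adjusted p = 0.0198). EGF lowered it with control siRNA (log2 -1.29 ± 0.19, edgeR adjusted p = 0.000104) and it was not called with Arid1a siRNAs (log2 -0.40 ± 0.15, edgeR adjusted p = 0.0627). The vehicle call was lost without control siRNA replicate 1 (log2 0.45, edgeR adjusted p = 0.129) and without Arid1a siRNA replicate 2 (log2 0.36, edgeR adjusted p = 0.110, with 0.0114 to 0.129 over its alternatives). Without Arid1a siRNA replicate 1 the EGF response with Arid1a siRNAs was called (log2 -0.48, edgeR adjusted p = 0.0491, with 0.0381 to 0.337 over its alternatives). Single neuron markers differed in direction, and they were not tested as a set. Of 7 markers in the files, 5 were tested, none was at 0 in every library, and their summed level was 147 to 156 CPM in Arid1a siRNAs with EGF, 159 to 170.4 CPM in Arid1a siRNAs, 109 to 118 CPM in control siRNA with EGF and 128 to 133 CPM in control siRNA. With the siRNAs 3 of the 5 rose (Snap25, Syt1 and Syp) and Elavl3 fell in EGF-treated cells, and Syt1 and Syp rose with vehicle. Snap25 (log2 0.20), Tubb3 (log2 -0.29) and Elavl3 (log2 -0.24) were not called with vehicle. Of all genes, 46.9% were called with EGF and 38.9% with vehicle. Syp, a synaptic vesicle protein gene, had log2 changes of 0.68 and 0.64. With EGF, Tubb3 and Snap25 fell with control siRNA and Tubb3 with Arid1a siRNAs. Syt1 (log2 0.45 with control siRNA and 0.41 with Arid1a siRNAs) and Syp (log2 -0.12 and -0.08) were not called for EGF. The part of neuron markers in the change of Actl6b, Smarcd3 or Ss18l1 was not tested.

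Actl6a stood at 199, 209 and 196 CPM in Arid1a siRNAs with EGF and 195, 178 and 192 CPM in Arid1a siRNAs, against 223, 244 and 226 CPM in control siRNA with EGF and 234 and 205 CPM in control siRNA. All libraries with Arid1a siRNAs lay below those with control siRNA of the same setting (log2 -0.20 ± 0.06, edgeR adjusted p = 0.0173 with EGF and log2 -0.22 ± 0.07, edgeR adjusted p = 0.0203 with vehicle). Mrpl47, which overlaps Actl6a on the other strand, had log2 changes of -0.26 and -0.22 there. The call in EGF-treated cells was lost without control siRNA with EGF replicate 2 or Arid1a siRNAs with EGF replicates 1 or 3 (adjusted p 1.45e-07 to 0.0840 over its alternatives), and the vehicle call without control siRNA replicate 1 or Arid1a siRNA replicate 2 (adjusted p 0.00200 to 0.289 over its alternatives). Actb stood at 1536, 1594 and 1525 CPM in Arid1a siRNAs with EGF and 1270.0, 1228 and 1399 CPM in Arid1a siRNAs, against 1759.7, 1794 and 1815 CPM in control siRNA with EGF and 1436 and 1441 CPM in control siRNA. EGF raised Actb with control siRNA (log2 0.31 ± 0.06, edgeR adjusted p = 0.000659) and with Arid1a siRNAs (log2 0.26 ± 0.05, edgeR adjusted p = 0.00221), with no overlap in either. Actb fell with the siRNAs in EGF-treated cells (log2 -0.21 ± 0.05, edgeR adjusted p = 0.00422), and was not called with vehicle (log2 -0.15 ± 0.06, edgeR adjusted p = 0.0542), though it was without Arid1a siRNA replicate 3 (log2 -0.20, edgeR adjusted p = 0.00266, with 0.00111 to 0.246 over its alternatives). Actb serves far more than this complex, and its reads can be shared with the near-identical Actg1, so its values are uncertain to that extent.

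**Figure D4:**
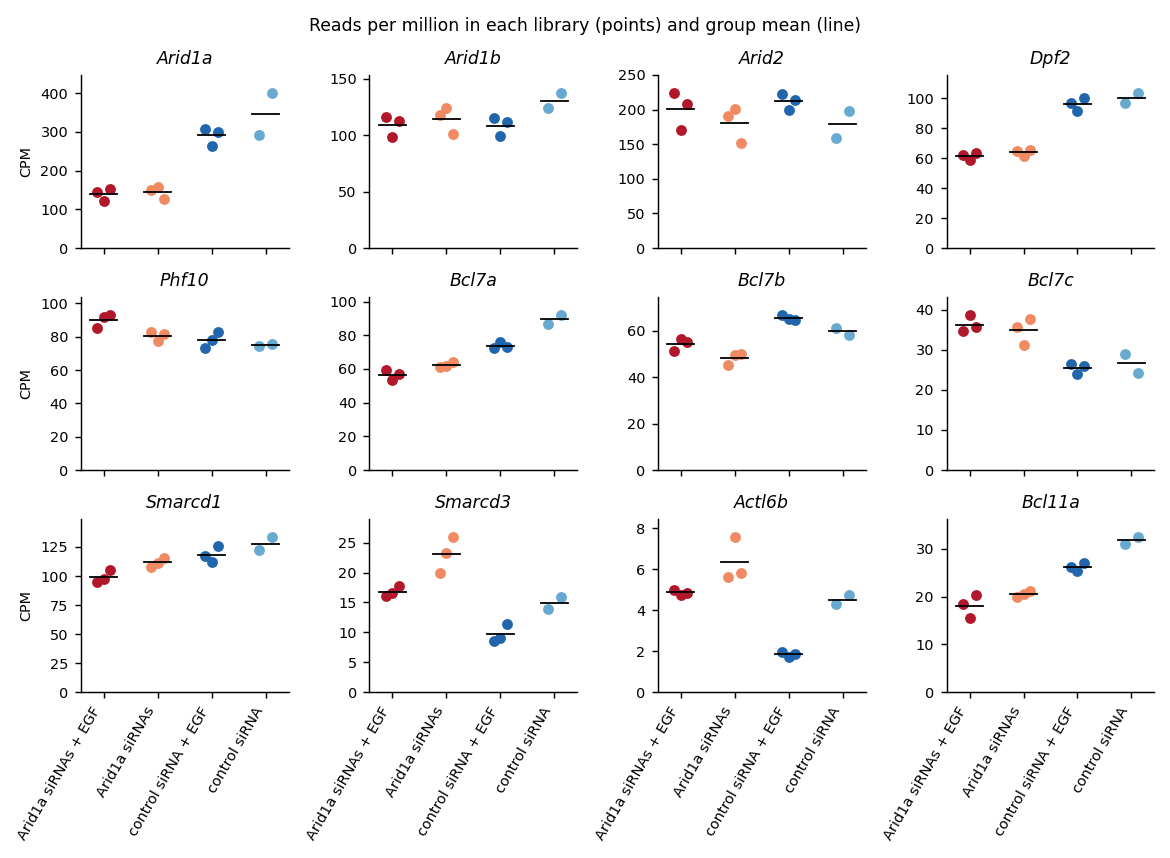
Level in CPM of 12 SWI/SNF subunit genes in each of the 11 libraries (points) with the mean of each group (line), each panel with its own axis from 0. From left to right the groups are Arid1a siRNAs with EGF, Arid1a siRNAs, control siRNA with EGF and control siRNA. Arid1a, Dpf2, Bcl7a and Bcl11a are lower, and Bcl7c and Smarcd3 higher, in the libraries with Arid1a siRNAs of each setting, while Arid2 overlaps between the siRNAs.

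The PHD-finger position holds DPF1, DPF2 or DPF3 in BAF and PHF10 in PBAF. Dpf2, the widely expressed member that reads histone acylation, had the smallest adjusted p of all subunit genes with the siRNAs. With EGF, Dpf2 stood at 62.0, 58.7 and 63.3 CPM with Arid1a siRNAs, against 96.6, 91.2 and 100.2 CPM with control siRNA. With vehicle, Dpf2 stood at 64.7, 61.6 and 65.2 CPM with Arid1a siRNAs, against 96.5 and 103 CPM with control siRNA. The highest library with Arid1a siRNAs was far below the lowest with control siRNA. Dpf2 was lower by 1.57 times in both settings (log2 -0.65 ± 0.06, edgeR adjusted p = 9.21e-07 with EGF and log2 -0.65 ± 0.07, edgeR adjusted p = 4.10e-06 with vehicle). For EGF it was called with neither siRNA, at log2 -0.06 ± 0.06 with control siRNA and -0.06 ± 0.06 with Arid1a siRNAs. Phf10 stood at 85.1, 91.8 and 92.9 CPM in Arid1a siRNAs with EGF and 83.1, 77.2 and 81.5 CPM in Arid1a siRNAs, against 73.3, 78.3 and 82.7 CPM in control siRNA with EGF and 74.2 and 75.9 CPM in control siRNA. Within each setting it lay higher in the libraries with Arid1a siRNAs. Phf10 rose in EGF-treated cells (log2 0.20 ± 0.06, edgeR adjusted p = 0.0139) and was not called with vehicle (log2 0.10 ± 0.07, edgeR adjusted p = 0.263). The call was lost without replicate 1 of control siRNA with EGF (log2 0.16, edgeR adjusted p = 0.0759, with 1.23e-05 to 0.0759 over its alternatives). Dpf1, best known from neurons, had group means between 9.47 and 9.88 CPM and was called in none of the 5 comparisons. Dpf3, known from heart, muscle and neurons, had 6, 5 and 6 reads in Arid1a siRNAs with EGF, 6, 15 and 5 in Arid1a siRNAs, 4, 4 and 2 in control siRNA with EGF and 10 and 13 in control siRNA. The fit called it lower with EGF in control siRNA cells (log2 -1.53 ± 0.50, edgeR adjusted p = 0.0263). With so few reads the call was lost without control siRNA replicate 2 (log2 -1.09, edgeR adjusted p = 0.191) or control siRNA with EGF replicates 2 or 3, and in DESeq2 (adjusted p 0.0191 to 0.191 over its alternatives).

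Bromodomain subunits mark PBAF (PBRM1 and BRD7) and ncBAF (BRD9), and Pbrm1, Brd7 and Brd9 were called in none of the 5 comparisons in the fit without the replicate block. Pbrm1 stood at 222, 192 and 227 CPM in Arid1a siRNAs with EGF and 223, 245 and 194 CPM in Arid1a siRNAs, against 197, 164 and 204 CPM in control siRNA with EGF and 166 and 223 CPM in control siRNA. Taken as groups, its libraries overlapped in all 4 comparisons. Between same-numbered EGF libraries, taken as 3 pairs from these same data and not from a label, Pbrm1 was higher with Arid1a siRNAs in each. Neither the fit without a block (edgeR adjusted p = 0.240) nor the block over all libraries called it. The blocked fit of those 6 libraries did (log2 0.19, edgeR adjusted p = 2.87e-07, with 2.87e-07 to 0.581 over its alternatives). The same fit called Brd9 (edgeR adjusted p = 0.0436, with 0.0417 to 0.388 over its alternatives) and Brd7 (edgeR adjusted p = 0.0483, with 0.0483 to 0.579 over its alternatives). Pbrm1 was called with vehicle without control siRNA replicate 2 (log2 0.41, edgeR adjusted p = 0.0385, with 8.51e-05 to 0.971 over its alternatives), against log2 0.18 ± 0.14 with it. Pbrm1 shares exon sequence with Gnl3 on the other strand, which had log2 changes with EGF of 0.92 with control siRNA and 0.75 with Arid1a siRNAs. Brd9 stood at 55.7, 58.9 and 59.1 CPM in Arid1a siRNAs with EGF and 65.7, 64.7 and 65.6 CPM in Arid1a siRNAs, against 51.8, 56.6 and 52.6 CPM in control siRNA with EGF and 63.5 and 57.9 CPM in control siRNA. All libraries with EGF lay below those with vehicle (log2 -0.18 ± 0.07, edgeR adjusted p = 0.0534 with control siRNA and log2 -0.17 ± 0.06, edgeR adjusted p = 0.0567 with Arid1a siRNAs). The first was called without control siRNA replicate 2 or replicate 2 of control siRNA with EGF (edgeR adjusted p = 0.0357 and 0.0382, with 0.0176 to 0.578 over its alternatives), and the second without control siRNA replicate 1 or 2 (edgeR adjusted p = 0.0382 and 0.0471, with 0.0198 to 0.188 over its alternatives). Brd7 had group means between 72.7 and 83.7 CPM. Gltscr1, whose protein is found in ncBAF alone among the forms, had means between 36.5 and 41.5 CPM and was also called in no comparison without the block, and with it in the EGF libraries alone (edgeR adjusted p = 0.0268, with 0.0268 to 0.616 over its alternatives).

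The BCL7 proteins are small subunits that bind the ATPase module, and the 3 genes moved in different directions. With EGF, Bcl7a stood at 59.2, 53.2 and 57.0 CPM with Arid1a siRNAs, against 72.4, 76.0 and 72.9 CPM with control siRNA. With vehicle, Bcl7a stood at 61.1, 61.6 and 64.0 CPM with Arid1a siRNAs, against 86.8 and 91.9 CPM with control siRNA. Bcl7a fell in both (log2 -0.39 ± 0.06, edgeR adjusted p = 0.000107 with EGF and log2 -0.52 ± 0.06, edgeR adjusted p = 2.50e-05 with vehicle), with no overlap between the groups, and EGF lowered it with control siRNA (log2 -0.28 ± 0.06, edgeR adjusted p = 0.00387). Bcl7b stood at 51.1, 56.4 and 54.9 CPM in Arid1a siRNAs with EGF and 45.1, 49.6 and 49.9 CPM in Arid1a siRNAs, against 66.7, 65.1 and 64.7 CPM in control siRNA with EGF and 61.0 and 58.4 CPM in control siRNA. It fell too, with no overlap (log2 -0.27 ± 0.06, edgeR adjusted p = 0.00242 with EGF and log2 -0.31 ± 0.07, edgeR adjusted p = 0.00325 with vehicle). Bcl7c stood at 34.6, 38.6 and 35.6 CPM in Arid1a siRNAs with EGF and 35.5, 31.2 and 37.8 CPM in Arid1a siRNAs, against 26.5, 23.9 and 25.9 CPM in control siRNA with EGF and 28.9 and 24.3 CPM in control siRNA. Every library with Arid1a siRNAs lay above the control siRNA libraries of its setting. Bcl7c rose by log2 0.51 ± 0.09, edgeR adjusted p = 0.000405 with EGF and log2 0.38 ± 0.10, edgeR adjusted p = 0.0101 with vehicle. The vehicle call was lost without control siRNA replicate 2 (log2 0.26, edgeR adjusted p = 0.104, with 0.00367 to 0.104 over its alternatives). On the FPKM scale, Bcl7c stood at 56.0 ± 2.60 with Arid1a siRNAs and EGF, against 39.2 ± 1.94 with control siRNA and EGF, and Bcl7b at 32.8 ± 1.41, against 39.6 ± 0.718. Bcl7b and Bcl7c were thus level within their spread in control siRNA with EGF, and Bcl7c was the higher of the pair in Arid1a siRNAs with EGF.

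SS18 and SS18L1 are alternatives found in BAF and ncBAF but not in PBAF, and SS18L1, also called CREST, is best known from neurons. Ss18 stood at 73.7, 75.5 and 77.0 CPM in Arid1a siRNAs with EGF and 67.8, 69.4 and 65.2 CPM in Arid1a siRNAs, against 89.2, 93.0 and 97.2 CPM in control siRNA with EGF and 80.7 and 76.1 CPM in control siRNA. Ss18 fell with the siRNAs (log2 -0.30 ± 0.06, edgeR adjusted p = 0.000487 with EGF and log2 -0.22 ± 0.06, edgeR adjusted p = 0.0137 with vehicle) and rose with EGF in control siRNA cells (log2 0.25 ± 0.06, edgeR adjusted p = 0.00681), with no overlap in any of these. The vehicle call was lost without control siRNA replicate 1 (log2 -0.17, edgeR adjusted p = 0.132, with 0.0160 to 0.132 over its alternatives) and the EGF response without control siRNA replicate 2 (log2 0.21, edgeR adjusted p = 0.0597, with 0.00314 to 0.302 over its alternatives). Ss18l1 stood at 28.5, 27.3 and 26.7 CPM in Arid1a siRNAs with EGF and 29.3, 32.3 and 27.4 CPM in Arid1a siRNAs, against 23.2, 23.0 and 22.7 CPM in control siRNA with EGF and 23.8 and 28.5 CPM in control siRNA. It rose with the siRNAs in EGF-treated cells (log2 0.26 ± 0.09, edgeR adjusted p = 0.0255), where the libraries did not overlap. That call was lost without any one of the 6 libraries with EGF except replicate 3 of Arid1a siRNAs with EGF (adjusted p 0.000965 to 0.0871 over its alternatives). With vehicle it was not called (log2 0.19 ± 0.10, edgeR adjusted p = 0.133), and it was without control siRNA replicate 2 (log2 0.32, edgeR adjusted p = 0.0358, with 0.0358 to 0.686 over its alternatives). For EGF with control siRNA, Ss18l1 was not called (log2 -0.18 ± 0.10, edgeR adjusted p = 0.168), and it was without control siRNA replicate 1 (log2 -0.32, edgeR adjusted p = 0.0474, with 0.0474 to 0.770 over its alternatives).

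Bcl11a encodes a zinc-finger transcription factor that is also a subunit of BAF, and its sister Bcl11b had a single read in all. With EGF, Bcl11a stood at 18.5, 15.4 and 20.3 CPM with Arid1a siRNAs, against 26.1, 25.4 and 27.1 CPM with control siRNA. With vehicle, Bcl11a stood at 19.9, 20.5 and 21.2 CPM with Arid1a siRNAs, against 31.1 and 32.4 CPM with control siRNA. The Arid1a siRNA values were all under the control siRNA values. Bcl11a fell in both settings (log2 -0.54 ± 0.09, edgeR adjusted p = 0.000303 with EGF and log2 -0.63 ± 0.10, edgeR adjusted p = 0.000222 with vehicle). EGF lowered it with control siRNA (log2 -0.28 ± 0.10, edgeR adjusted p = 0.0407). The call was lost without any one of the 5 control siRNA libraries, Arid1a siRNA replicates 1 and 2 and Arid1a siRNAs with EGF replicate 1 (adjusted p 0.0168 to 0.305 over its alternatives).

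Grouped by the form of complex that holds them, the 6 tested BAF-only genes had 3 called lower and 0 higher with the siRNAs in each setting, with Arid1a as the siRNAs' own target and Dpf2 and Bcl11a as the others. Of the 4 PBAF genes (Arid2, Phf10, Pbrm1 and Brd7), 0 were called with vehicle, and 1, Phf10, was called higher with EGF. Neither of the 2 tested ncBAF genes, Brd9 and Gltscr1, was called. Of the 17 genes whose products are found in more than one form, 3 were higher and 6 lower with vehicle, and 5 higher and 7 lower with EGF. Differences between the forms were not tested. The background of all genes called higher and lower was 18.8% and 20.1% with vehicle, and 23.7% and 23.2% with EGF.

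The balance of alternative subunits was read as the ratio of their counts in each library, which needs no scaling between libraries, and was tested for 13 pairs. The ratio does not compare levels between genes, since counts depend on length; it shows how their balance moved. The test was exact, over 200 rearrangements of the libraries within each setting, with p adjusted over the 26 ratio tests run. With the Arid1a siRNAs 12 of the 13 ratios differed, and with EGF 9 did. The share of other gene pairs whose ratio differs was not computed, so these counts have no background and are not read as particular to the subunits. Of all single genes, the siRNAs changed 38.9% with vehicle and 46.9% with EGF in the edgeR test. There EGF changed 35.6% with control siRNA and 23.4% with Arid1a siRNAs. The smallest adjusted p that the exact test could give for these ratios was 0.00867, and the ratios use the same counts as the single-gene tests, so they are another view of the same changes. Without control siRNA replicate 2, 9 ratios differed with the siRNAs and 7 with EGF.

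The balance of Arid1a to Arid1b was lower with Arid1a siRNAs, which have Arid1a as their target. The count ratio of Arid1a to Arid1b was 1.25, 1.25 and 1.35 in Arid1a siRNAs with EGF and 1.28, 1.27 and 1.25 in Arid1a siRNAs, against 2.67, 2.66 and 2.70 in control siRNA with EGF and 2.35 and 2.91 in control siRNA. The ranges were far apart (log2 difference -1.05, exact permutation adjusted p = 0.00867). Per length, the authors' FPKM values gave Arid1a over Arid1b as 1.77 ± 0.0811 with Arid1a siRNAs and EGF, against 3.70 ± 0.0230 with control siRNA and EGF (SD, n = 3), so Arid1a RNA still exceeded Arid1b RNA. With EGF the difference in that count ratio was 0.03 on the log2 scale and was not called (exact permutation adjusted p = 0.780). The ratio of Arid1b to Arid2, which sets a BAF subunit against its PBAF counterpart, was 0.518, 0.574 and 0.540 in Arid1a siRNAs with EGF and 0.618, 0.618 and 0.668 in Arid1a siRNAs, against 0.517, 0.496 and 0.519 in control siRNA with EGF and 0.780 and 0.693 in control siRNA. It was lower in each library with EGF than in each library with vehicle (log2 difference -0.37, exact permutation adjusted p = 0.00867), and it was the single ratio that did not differ with the siRNAs (-0.06, exact permutation adjusted p = 0.464).

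In Actl6a to Actl6b, Smarcd1 to Smarcd3 and Ss18 to Ss18l1, the second member has the lower FPKM level. The balance moved towards it with the siRNAs and away from it with EGF. Both also held for Brd7 to Brd9, which is given further below. The ratio of Actl6a to Actl6b was 39.8, 44.1 and 40.5 in Arid1a siRNAs with EGF and 34.9, 23.6 and 32.9 in Arid1a siRNAs, against 114, 141 and 123 in control siRNA with EGF and 54.5 and 43.3 in control siRNA. Its log2 difference with the siRNAs was -1.58 with EGF and -0.69 with vehicle, and -1.14 over both (exact permutation adjusted p = 0.00867). EGF moved it by 0.91 (exact permutation adjusted p = 0.00867). Even so, per length Actl6a RNA was 33.7 ± 2.41 times that of Actl6b in Arid1a siRNAs with EGF, against 98.0 ± 10.8 times in control siRNA with EGF. The ratio of Smarcd1 to Smarcd3 was 5.91, 5.88 and 5.92 in Arid1a siRNAs with EGF and 5.42, 4.75 and 4.47 in Arid1a siRNAs, against 13.8, 12.4 and 10.97 in control siRNA with EGF and 8.84 and 8.35 in control siRNA. Both factors moved it, the siRNAs by -0.94 and EGF by 0.40 on the log2 scale (exact permutation adjusted p = 0.00867 for each). Ss18 to Ss18l1 went the same way, with ratios of 2.59, 2.76 and 2.89 in Arid1a siRNAs with EGF and 2.31, 2.15 and 2.38 in Arid1a siRNAs, against 3.85, 4.04 and 4.29 in control siRNA with EGF and 3.40 and 2.67 in control siRNA. Its log2 difference was -0.48 with the siRNAs and 0.35 with EGF (exact permutation adjusted p = 0.00867 for each).

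At the scaffold, BAF45 and BCL7 positions, both partners had substantial levels. The ratio of Smarcc1 to Smarcc2 was 0.684, 0.669 and 0.704 in Arid1a siRNAs with EGF and 0.558, 0.577 and 0.559 in Arid1a siRNAs, against 0.965, 0.953 and 0.945 in control siRNA with EGF and 0.715 and 0.729 in control siRNA. Replicates of a group lay close together, and all 4 groups were apart from each other. The siRNAs moved it by -0.42 and EGF by 0.34 on the log2 scale (exact permutation adjusted p = 0.00867 for each). The ratio of Dpf2 to Phf10, the BAF45 members of BAF and PBAF, was 0.729, 0.640 and 0.681 in Arid1a siRNAs with EGF and 0.779, 0.798 and 0.799 in Arid1a siRNAs, against 1.32, 1.17 and 1.21 in control siRNA with EGF and 1.30 and 1.36 in control siRNA. It was lower in every library with Arid1a siRNAs (log2 difference -0.80, exact permutation adjusted p = 0.00867). EGF moved it by -0.16 (exact permutation adjusted p = 0.0205), a call lost without control siRNA replicate 2 (adjusted p 0.0205 to 0.0542 over its alternatives). Per length, Dpf2 RNA was 0.369 ± 0.0213 times that of Phf10 in Arid1a siRNAs with EGF, against 0.659 ± 0.0493 times in control siRNA with EGF. The ratio of Bcl7a to Bcl7c was 1.71, 1.38 and 1.60 in Arid1a siRNAs with EGF and 1.72, 1.97 and 1.70 in Arid1a siRNAs, against 2.73, 3.18 and 2.81 in control siRNA with EGF and 3.002 and 3.79 in control siRNA (log2 difference with the siRNAs -0.90, exact permutation adjusted p = 0.00867). With EGF the difference was -0.21 (exact permutation adjusted p = 0.0650). It was called without any one of control siRNA replicate 1, control siRNA with EGF replicate 2 and Arid1a siRNAs with EGF replicate 1 (adjusted p 0.0342 to 0.240 over its alternatives).

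**Figure D5:**
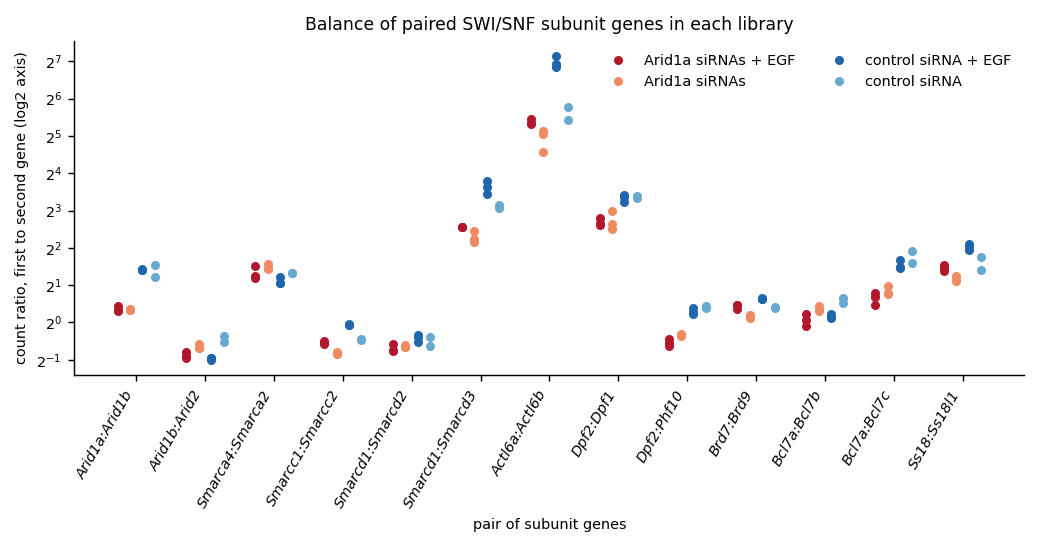
Ratio of the counts of 13 pairs of SWI/SNF subunit genes in each of the 11 libraries, on a log2 axis. Points of a pair are grouped, from left to right, as Arid1a siRNAs with EGF, Arid1a siRNAs, control siRNA with EGF and control siRNA. Arid1a to Arid1b, Smarcd1 to Smarcd3, Actl6a to Actl6b, Dpf2 to Phf10 and Bcl7a to Bcl7c are lower in every library with Arid1a siRNAs than in the control siRNA libraries of the same setting, and Arid1b to Arid2 is lower in the libraries with EGF.

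Brd7 to Brd9, which sets a PBAF bromodomain against that of ncBAF, had ratios of 1.38, 1.28 and 1.38 in Arid1a siRNAs with EGF and 1.11, 1.14 and 1.08 in Arid1a siRNAs, against 1.54, 1.58 and 1.56 in control siRNA with EGF and 1.30 and 1.34 in control siRNA. The ratio differed with the siRNAs by -0.23 on the log2 scale and with EGF by 0.26 (exact permutation adjusted p = 0.00867 for each). Neither gene was called alone in the fit without the block, but the thresholds are unlike. Single-gene tests took 1 setting each and were adjusted over 13343 genes, whereas ratio tests pooled both settings and were adjusted over 26 tests. For the motors, Smarca4 to Smarca2 stood at 2.36, 2.84 and 2.29 in Arid1a siRNAs with EGF and 2.73, 2.70 and 2.94 in Arid1a siRNAs, against 2.06, 2.34 and 2.097 in control siRNA with EGF and 2.52 and 2.52 in control siRNA. The siRNAs moved it by 0.17 (exact permutation adjusted p = 0.0205) and EGF by -0.19 (exact permutation adjusted p = 0.0371). Both calls were lost when single libraries were left out. For the siRNAs these were either control siRNA library, control siRNA with EGF replicates 1 and 3 and Arid1a siRNAs with EGF replicate 2 (adjusted p 0.0163 to 0.0743 over its alternatives). For EGF these were control siRNA replicate 2, all 3 of control siRNA with EGF, Arid1a siRNA replicate 3 and Arid1a siRNAs with EGF replicates 1 and 3 (adjusted p 0.0163 to 0.0743 over its alternatives).

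Of the remaining pairs, Dpf2 to Dpf1 moved with the siRNAs by -0.65 (exact permutation adjusted p = 0.0153) and differed with EGF by -0.02, which was not called (exact permutation adjusted p = 0.885). Smarcd1 to Smarcd2 moved with the siRNAs by -0.21 (exact permutation adjusted p = 0.0153) and differed with EGF by 0.02, which was not called (exact permutation adjusted p = 0.780). The siRNA difference of Smarcd1 to Smarcd2 was lost without control siRNA replicate 2 or Arid1a siRNA replicates 1 or 2 (adjusted p 0.0153 to 0.0774 over its alternatives). Bcl7a to Bcl7b moved with the siRNAs by -0.16 (exact permutation adjusted p = 0.0371) and with EGF by -0.36 (exact permutation adjusted p = 0.00867). The siRNA difference was lost without any one library except control siRNA replicate 1 and Arid1a siRNAs with EGF replicate 1 (adjusted p 0.0163 to 0.0867 over its alternatives). Leaving out a library also leaves fewer arrangements for the exact test.

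Subunits of the other remodeller families gave a point of comparison, as they use related motors and in part the same actin-related proteins. Of 29 tested genes of the INO80, SRCAP and TIP60-p400 complexes, 6 were higher and 6 lower with the siRNAs with EGF, and 2 higher and 4 lower with vehicle. Of 15 ISWI genes, 1 was higher and 4 lower with EGF, and 1 higher and 3 lower with vehicle. The shares called were 41.4% with EGF and 20.7% with vehicle for the first family and 33.3% and 26.7% for ISWI, against 46.9% and 38.9% of all genes. The differences from SWI/SNF were not tested. Ino80c, a subunit of INO80, fell with the siRNAs (log2 -0.89 ± 0.10 with EGF, edgeR adjusted p = 6.52e-06, and log2 -0.84 ± 0.11 with vehicle, edgeR adjusted p = 3.61e-05). So did Morf4l1, a TIP60 subunit, with EGF (log2 -0.73 ± 0.11, edgeR adjusted p = 6.56e-05) and Yy1, a transcription factor bound to INO80, with vehicle (log2 -0.69 ± 0.07, edgeR adjusted p = 5.02e-06). Of the ISWI genes, Baz1a, a partner of an ISWI motor, fell with the siRNAs (log2 -0.64 ± 0.07 with EGF and -0.68 ± 0.08 with vehicle, edgeR adjusted p = 4.14e-06 and 1.43e-05). It rose with EGF (log2 0.43 ± 0.08 with control siRNA and 0.47 ± 0.07 with Arid1a siRNAs, edgeR adjusted p = 0.000546 and 0.000349). Rbbp7, a histone-binding subunit, fell with the siRNAs in EGF-treated cells (log2 -0.25 ± 0.05, edgeR adjusted p = 0.000704). Smarca5, which encodes an ISWI motor, fell with vehicle (log2 -0.37 ± 0.08, edgeR adjusted p = 0.00232). Smarca1, the other ISWI motor gene, did not fall there. With vehicle its mean was 385 ± 21.9 CPM with Arid1a siRNAs (SD, n = 3), against 335 ± 16.6 CPM with control siRNA (SD, n = 2). With EGF, 5 genes of the INO80, SRCAP and TIP60-p400 complexes were higher and 4 lower with control siRNA, and 3 were higher and 1 lower with Arid1a siRNAs. Among them Ruvbl2, a shared helicase, rose by log2 0.31 ± 0.07 with control siRNA and 0.28 ± 0.06 with Arid1a siRNAs. Ino80e, another INO80 subunit, rose by log2 0.37 ± 0.08 and 0.34 ± 0.08. The share of genes of these complexes called for EGF was below that of all genes with either siRNA. Of all genes, EGF changed 35.6% with control siRNA and 23.4% with Arid1a siRNAs, and the differences from these shares were not tested. Of the ISWI genes, EGF raised 1 with either siRNA and lowered 1, Hmgxb4, with Arid1a siRNAs (log2 -0.23 ± 0.07, edgeR adjusted p = 0.0262). The share of ISWI genes called for EGF was 6.67% with control siRNA and 13.3% with Arid1a siRNAs, below the shares of all genes.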

How the data were processed

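RNA-seq libraries (TruSeq RNA v2, without strand information) from 11 samples were aligned with TopHat2 2.1.1 to mm9, per the submitters' processing notes, which also name Cuffdiff 2.2.1.5, HTSeq 0.9.1 and Cuffnorm 2.2.1.2. The authors deposited raw read counts per gene symbol for each library, and FPKM values for the whole series, which are normalised for transcript length and depth. The 3 FPKM columns of control siRNA without EGF did not match its 2 libraries and were not used. Counts were analysed in R 4.3.3 with edgeR 4.0.16 (quasi-likelihood test, TMM factors, robust fit, 4 group means over all 11 libraries). Of 23284 symbols, 13343 (57.3%) passed the filter on low counts (filterByExpr, minimum count 10), and p-values were adjusted over these by Benjamini-Hochberg. The biological coefficient of variation was 7.00%, which with 2 or 3 libraries a group limits precision. In data simulated for Arid1a siRNAs over control siRNA with EGF (13187 genes), the same steps recovered 67.2% of genes changed 1.5-fold and 89.6% of those changed 2.0-fold. With vehicle these were 58.2% and 86.6%, and for the difference between EGF responses 58.2% and 89.6%. Each simulation changed 67 genes at each of these folds. For the siRNAs and for EGF that is far fewer than the data called, so recovery there may differ.

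FPKM values were used for levels and, as log2(FPKM + 1), in limma 3.58.1. Count ratios had a pseudocount of 0.5 and an exact two-sided permutation test within settings. Exon lengths were from GENCODE vM21. The members and gene lists were chosen with earlier results of these data known. Full values were given for Arid1a, Arid1b, Arid2, Smarca4, Smarca2, Pbrm1, Brd9 and every member called in any of the 5 comparisons, and of the other remodeller families for at most the 2 called genes with the smallest p in each family and comparison. Smarca1 was named besides these, as the other ISWI motor gene next to Smarca5. Markers of fibroblasts (summed level 10.6 to 14.8 CPM) and immune or endothelial cells (1.16 to 3.10 CPM) were also summed. Same-numbered libraries with EGF deviated together (correlations of 0.14, 0.30 and 0.13 of log2 CPM deviations from the group means). Their numbers were therefore taken as pairs, and those of the other comparisons were not. No label gives these pairs, and some libraries of unlike number had higher correlations. Control siRNA replicate 1 had 0.38 with replicate 2 of control siRNA with EGF and 0.38 with replicate 2 of Arid1a siRNAs with EGF. Whether these correlations follow the trend with gene length was not tested. No libraries agreed within sampling noise (chi-square per degree of freedom 1.57 to 10.9 between libraries of a group). Alternatives were RLE factors, scaling by library size, no filter, DESeq2 1.42.0, fits of only the groups compared, a replicate block, limma on FPKM and each library left out; a correction for the trend with gene length was added after seeing the data.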

Additional observations from a re-analysis of the deposited data

How the results depend on the processing

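No called direction turned round under any alternative, and counts that are not listed stayed within 1.5 times of those reported. With Arid1a siRNAs over control siRNA with vehicle, 3 subunit genes were higher and 9 lower. A fit with a replicate block over only the groups compared gave 6 higher. Scaling by library size alone gave 5 lower, and fitting only the groups compared gave 5 as well. In the comparison of EGF with vehicle in Arid1a siRNA cells, 2 were higher and 2 lower. There RLE factors, scaling by library size, no filter on low counts, the replicate block and the block over only the groups compared each gave 1 higher. Scaling by library size gave 7 lower, limma on log2(FPKM + 1) 4 lower, and the block over only the groups compared 1 lower. With EGF over vehicle in control siRNA cells, 3 were higher and 8 lower. The block over only the groups compared gave 1 higher and 2 lower, and the gene length trend, an alternative chosen after seeing the data, gave 5 higher. The cause of these moves was not tested.

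Leaving out each library gave 2 to 5 higher and 7 to 9 lower for the siRNAs with vehicle, 4 to 6 higher and 9 to 10 lower for the siRNAs with EGF, 2 to 4 higher and 5 to 8 lower for EGF with control siRNA, and 1 to 2 higher and 1 to 4 lower for EGF with Arid1a siRNAs. It gave 9 to 12 ratios for the siRNAs and 7 to 10 for EGF. Of the called genes, 6 of 12 were called in every setting for the siRNAs with vehicle, 12 of 16 with EGF, 3 of 11 for EGF with control siRNA (Smarcd3, Actl6b and Actb) and 1 of 4 for EGF with Arid1a siRNAs (Actb).

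Some calls were also lost outside the runs with a library left out. Scaling by library size lost Smarcc1 and Actl6a in both siRNA comparisons, Smarcd1 and Ss18 with vehicle, and Smarca2 for EGF with Arid1a siRNAs. DESeq2 lost Smarcd1 and Actl6b with vehicle, and Dpf3 and Bcl11a for EGF with control siRNA. With the replicate block over all libraries, Smarcc1 (log2 -0.20) and Actl6a (log2 -0.21) were lost with vehicle, Arid1b (log2 -0.26) for EGF with control siRNA and Smarca2 (log2 0.26) for EGF with Arid1a siRNAs. In the siRNA comparison with EGF, where the numbers were taken as pairs from these same data, it changed no call. The block over only those 6 libraries added the 7 calls given above. The gene length trend added calls with the siRNAs of Arid1b (log2 -0.16), Actb (log2 -0.16) and Smarcc2 (log2 0.16) with vehicle and Pbrm1 (log2 0.22) with EGF. For EGF it added Arid1a (log2 -0.26), Arid2 (log2 0.24) and Smarca4 (log2 0.15) with control siRNA and Smarcd1 (log2 -0.17) with Arid1a siRNAs. Outside the siRNA comparison with EGF, the numbers were not taken as pairs. Same-numbered correlations there were 0.04, -0.30 and -0.11 between Arid1a siRNAs with EGF and Arid1a siRNAs. They were -0.19 and -0.38 between control siRNA with EGF and control siRNA, and 0.05 and 0.32 between Arid1a siRNAs and control siRNA.

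Over all genes, the difference between EGF responses was called for 75 genes higher and 51 lower, for 31 and 25 with the replicate block, and for 121 and 79 with the gene length trend. The block over only the groups compared called 1234 genes higher and 1009 lower for EGF with control siRNA, against 2237 and 2507 as reported, and 1113 and 819 for EGF with Arid1a siRNAs, against 1734 and 1385. With 2 control siRNA libraries with vehicle, changes of about 0.2 on the log2 scale rest on single libraries, and Dpf3, with 2 to 15 reads, is at the limit of the counts.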
